A study of Mus musculus with 168 samples.

Results

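The first hour of room air after 3 h at 8% oxygen was examined in the hippocampus of adult mice, by setting the 3 arrays labelled R1 directly against the 3 arrays labelled H3. The members were chosen by their labels alone, and these 6 arrays are part of a series with 24 arrays from each of 7 brain regions. In the study, male C57BL/6 mice aged 8 to 9 weeks breathed 8% oxygen for 1 h (H1) or 3 h (H3), or breathed it for 3 h and were then returned to room air for 1, 3, 6, 12 or 24 h (R1, R3, R6, R12 and R24). Sham controls (C, the 0hr arrays) spent 3 h in the same chambers in room air and then 24 h in their home cages. In comparisons of H1 to R12 with C, hour of day and time since handling therefore cannot be told apart from hypoxia. Between R1 and H3, 1 h of time and the move to the home cages likewise cannot be told apart from the return of oxygen, as neither had its own sham group. The R24 mice had the same schedule as C, but the hour of day is not given. Each of the 8 groups held 3 mice, 24 in all, with 1 array per mouse and region, and all of them were otherwise untreated. Whole hippocampus was hybridised to the Affymetrix Mouse Genome 430 2.0 array, and a transcript here means 1 probe set on it. In such bulk tissue, fewer cells of a type and less RNA per cell cannot be told apart.

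When oxygen falls, prolyl hydroxylases lose activity and hypoxia-inducible factor (HIF) accumulates and drives genes for glycolysis, vessel growth and vascular tone. Other programmes respond as well, among them the immediate early genes, the FOXO factors that respond to energy and growth factor state, and the glucocorticoid receptor. With the return of oxygen HIF is hydroxylated and degraded, and messengers that turn over quickly can fall within an hour. The hippocampus holds neurons known for their sensitivity to oxygen lack.

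Of 12 hippocampal neuron markers, 10 had their highest control level in the hippocampus among the 7 regions; Wfs1 and Homer3 were higher in a single other region. The intensity summed over these markers lay between 4649 and 4896 in H3 and between 4676 and 5118 in R1. None of the 13 marker lists held a transcript that passed between R1 and H3. A pair of arrays stood apart on markers of neighbouring tissue. The 8 striatum markers summed to 2227 in H3 replicate 3, against 1068 and 1023 in the other H3 arrays and 946 to 1083 in R1, and their median difference between R1 and H3 was -0.38. The 11 choroid plexus markers summed to 2305 in R1 replicate 2, against 7383 and 7438 in the other R1 arrays and 5425 to 7933 in H3, and their median difference was -0.20. That same array had the lowest sum of the 11 meninges and fibroblast markers, 1163 against 1655 and 2154 in the other R1 arrays and 1834 to 2215 in H3. Their part in the results below was not tested, and for the called genes described most fully the difference without each of these arrays is given. The ratio of 3' to 5' signal, a sign of RNA integrity, overlapped between H3 and R1 for Gapdh (0.751 to 0.769 and 0.739 to 0.774) and for beta-actin (1.13 to 1.19 in both).

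Room air for 1 h was accompanied by a small set of changes. Tests were limma's moderated tests on log2(intensity + 16), with Benjamini-Hochberg adjustment over 45037 transcripts and a threshold of 0.05; differences below are R1 minus H3 on that scale unless another pair is named, with the standard error (SE) of the fit. A total of 33 transcripts passed, 0.0733% of those tested. The fit took its spread from all 24 hippocampal arrays; with the 6 H3 and R1 arrays alone, or by the methods' t-test on them after adjustment, 0 passed in limma or the t-test, and with 1 in place of 16 added to the intensity 18 passed in limma. Of the 33, 22 were lower at R1 (0.0488% of those tested) and 11 were higher (0.0244%). Over all transcripts, 2890 had an unadjusted p under 0.05 in limma. The lower transcripts were led by Depp1, H3f3b and Ier3, with differences of -2.46, -1.53 and -1.44, and the higher ones that carry a gene name by Hmgcs1, Rtn4 and Ints6, with rises of 1.18, 1.09 and 1.03; the unnamed 1446954_at lay between the first pair. In all 33 the 3 R1 arrays lay entirely on one side of the 3 H3 arrays. Over all transcripts such separation was found upwards in 5.17% and downwards in 6.46%.

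Only 20 of the 33 are annotated with 1 gene symbol, and 13 carry none and are named by probe set. The last transcripts inside the threshold were Dvl2 (-0.43) and 1459722_at (-0.74), both at an adjusted p of 0.0452, and the first ones outside were Polb (0.65, limma adjusted p = 0.0512) and Mylip (0.37, limma adjusted p = 0.0535). All 33 kept the direction of their difference when any 1 of the 6 H3 and R1 arrays was left out, but the number that still passed depended on the array. Of the 33, 4 still passed without H3 replicate 3, the array with high striatum markers, namely Depp1, H3f3b, Ier3 and Tcf12. Without R1 replicate 2, the array with low choroid plexus and meninges markers, 20 transcripts passed, 14 of them among the 33. The count of transcripts passing was 12 without H3 replicate 1, 25 without H3 replicate 2, 4 without H3 replicate 3, 8 without R1 replicate 1 and 10 without R1 replicate 3. Depp1, H3f3b and Ier3 passed in each of the 6 cases.

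The proximal promoters of the 4 genes below are shown because their transcripts were above the controls at H3 and fell in room air, and the genes have well-described roles. Each is the 250 bases before the annotated start, 5' to 3' on the gene's strand, from RefSeq on GRCm38.p6. Capitals mark a match, on either strand, to any of the 5 motifs searched: ACGTG (the core of the HIF element), GTAAACA (FOXO), TGACGTCA (the cyclic AMP element), TGACTCA (AP-1) and GAANNTTC (heat shock element).
Depp1 (chr6:116650434-116650683, plus strand): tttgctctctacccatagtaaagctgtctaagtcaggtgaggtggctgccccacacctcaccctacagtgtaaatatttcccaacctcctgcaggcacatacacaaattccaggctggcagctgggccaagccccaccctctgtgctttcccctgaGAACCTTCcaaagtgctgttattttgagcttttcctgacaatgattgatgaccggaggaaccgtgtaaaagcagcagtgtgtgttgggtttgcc
H3f3b (chr11:116024505-116024754, minus strand): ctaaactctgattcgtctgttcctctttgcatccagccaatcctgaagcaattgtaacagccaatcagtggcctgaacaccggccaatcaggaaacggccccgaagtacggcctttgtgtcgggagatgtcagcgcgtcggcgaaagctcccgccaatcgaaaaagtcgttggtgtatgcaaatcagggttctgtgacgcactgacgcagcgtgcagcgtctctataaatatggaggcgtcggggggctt
Ier3 (chr17:35821463-35821712, plus strand): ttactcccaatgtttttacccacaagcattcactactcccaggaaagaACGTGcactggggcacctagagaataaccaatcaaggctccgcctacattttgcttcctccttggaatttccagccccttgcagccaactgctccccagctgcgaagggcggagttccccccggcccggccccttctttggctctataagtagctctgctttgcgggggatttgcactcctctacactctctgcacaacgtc
Edn1 (chr13:42301226-42301475, plus strand): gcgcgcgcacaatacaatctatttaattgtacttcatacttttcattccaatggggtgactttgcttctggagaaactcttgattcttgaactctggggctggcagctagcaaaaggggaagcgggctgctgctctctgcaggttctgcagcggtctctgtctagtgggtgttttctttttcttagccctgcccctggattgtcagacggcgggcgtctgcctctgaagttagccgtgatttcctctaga

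In this window Depp1 held 1 GAANNTTC match and Ier3 held 1 ACGTG match, while the printed bases of H3f3b and Edn1 held none of the 5; an ACGTG match of Edn1 lay in the 50 bases after the start, which were searched as well. Promoters were listed for 11 of the 12 named genes that were lower at R1 and for 7 of the 8 that were higher. ACGTG was found in 5 of the 11 (45.5%; Dvl2, Edn1, Ier3, Malat1 and Ranbp2) and in 4 of the 7 (57.1%; Ints6, Lysmd3, Trmt13 and Ube2b), against 21.8% of all 27025 genes listed. GTAAACA was found in 0 of 11 and 1 of 7 (4.05% of all), TGACGTCA in 0 and 1 (Ube2b; 2.03% of all), TGACTCA in 2 and 2 (5.95% of all), and GAANNTTC in 1 and 0 (9.04% of all). ACGTG and TGACGTCA share letters and can overlap. These are matches of letters and were not tested.

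Depp1, an autophagy regulator that FOXO factors are known to induce, showed the largest difference. Its intensity was 16, 20.7 and 12.0 in the C arrays, 195, 241 and 228 in H3, and 12.4, 78.9 and 13.4 in R1. All R1 arrays were below all H3 arrays, with R1 replicates 1 and 3 among the controls and R1 replicate 2 between the groups. The difference was -2.46 (SE 0.30; limma adjusted p = 0.0022), a 5.51-fold lower level, and it was -3.03 without R1 replicate 2 and -2.44 without H3 replicate 3. Its level had already reached a mean of 183 at H1, and at R3 the mean was 13.1. A further Depp1 probe set, with means of 116 in C, 241 in H3 and 174 in R1, did not pass (-0.43, limma adjusted p = 0.96).

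H3f3b encodes the replication-independent histone variant H3.3. Its intensity was 25.6, 25.7 and 35.1 in C, 108, 108 and 105 in H3, and 32, 28.6 and 19.9 in R1. The H3 arrays stood above the C and R1 arrays, and the R1 arrays overlapped the controls. The difference was -1.53 (SE 0.19; limma adjusted p = 0.0022), a 2.90-fold lower level, -1.55 without H3 replicate 3 and -1.57 without R1 replicate 2. At H1 the mean was 66.4, between the C and H3 levels, and at R3 it was 21.5. A further 5 probe sets, brighter by far, are annotated with 6 genes each, H3f3b and H3f3a among them, so their signal belongs to no single gene. None of the 5 passed between R1 and H3 (-0.03 to 0.08), and 1420376_a_at was above C at both times (0.41 at H3 and 0.48 at R1), as was 1455725_a_at at R1 (0.41). The call of 1420376_a_at at H3 was lost without C replicate 2 or H3 replicate 3, and that of 1455725_a_at was kept in 1 of 6 cases with an array left out. The fall was thus seen in the 1 dim probe set that names H3f3b alone.

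Ier3, an immediate early gene that modulates apoptosis, had a higher mean at H1 than at H3. Its intensity was 62.1, 65.6 and 58.1 in C, 191, 154 and 185 in H3, and 56.0, 48.4 and 60.6 in R1, with a mean of 249 at H1 and 71.9 at R3. The H3 arrays lay far above the R1 arrays, which overlapped the controls. The difference was -1.44 (SE 0.17; limma adjusted p = 0.0022), a 2.71-fold lower level, -1.41 without H3 replicate 3 and -1.37 without R1 replicate 2.

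Edn1, the precursor of the vasoconstrictor endothelin-1 and a HIF target, had intensities of 10.6, 9.56 and 7.91 in C, 42, 43.7 and 41.0 in H3, and 10.3, 11 and 21.1 in R1. The H3 arrays were tightly grouped above both other groups, and R1 replicate 3 lay between them. The difference was -0.97 (SE 0.17; limma adjusted p = 0.0345). It missed the threshold with the replicate number as a block (limma adjusted p = 0.0538) and when any of the 6 arrays other than R1 replicate 3 was left out (-1.13 without that array, -0.98 without H3 replicate 3, -0.90 without R1 replicate 2 and -0.88 as the smallest of the 6 differences). The mean was 54.2 at H1 and 12.7 at R3.

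Malat1, a nuclear long non-coding RNA, read 74.5, 66.3 and 54.1 in C, 159, 135 and 155 in H3, and 68.2, 61.0 and 61.7 in R1. The R1 arrays lay within the range of the controls, and the difference was -1.06 (SE 0.15; limma adjusted p = 0.0074). The 6 other Malat1 probe sets did not pass. A brighter one among them, with a mean of 224 over the 24 arrays against 85.3, went the other way. It was below C at H3 (-0.60) and rose by 0.46 from H3 to R1 without overlap (limma adjusted p = 0.388). The rest differed by -0.21 to -0.01 between R1 and H3. Ranbp2, a component of the nuclear pore that also acts in SUMO modification, read 27.8, 33.2 and 37.0 in C, 80.3, 89.3 and 84.2 in H3, and 36.9, 42.7 and 41.0 in R1. The H3 arrays lay above both other groups, which overlapped. Its difference was -0.84 (SE 0.12; limma adjusted p = 0.0074), and its 3 other probe sets did not pass (-0.18 to 0.12). The brightest of these, with a mean of 467 over the 24 arrays against 44.0, differed by -0.18. With an array left out, Malat1 missed the threshold without H3 replicate 1, H3 replicate 3 or R1 replicate 3, and Ranbp2 without H3 replicate 3 or R1 replicate 1 (limma adjusted p at most 0.0599 over the cases). Without H3 replicate 3 the differences were -1.03 for Malat1 and -0.84 for Ranbp2, and without R1 replicate 2 they were -1.03 and -0.87.

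Among the remaining named transcripts that fell, Tcf12 and Zfp420 passed below the controls at R1 as well, and their H3 arrays overlapped the controls. Tcf12, a basic helix-loop-helix transcription factor, read 55.6, 45.1 and 46.8 in C, 75.9, 63.8 and 43.3 in H3, and 13.2, 17.7 and 22.9 in R1. Its R1 arrays lay below all controls and all H3 arrays. The difference was -1.17 from H3 (SE 0.16; limma adjusted p = 0.0073) and -0.95 from C (limma adjusted p = 0.0141), and at R3 the mean was back at 53.4. Zfp420, a zinc finger protein, read 93.7, 104 and 81.5 in C, 123, 76.9 and 98.0 in H3, and 45.9, 51.1 and 44.6 in R1. All of its R1 arrays were below the other 6, with a difference of -0.85 from H3 (SE 0.13; limma adjusted p = 0.0181) and of -0.78 from C (limma adjusted p = 0.0141). With an array left out, Tcf12 kept its call against H3 in 5 of 6 cases, losing it without R1 replicate 1, and Zfp420 in 2, without H3 replicate 2 or R1 replicate 2 (limma adjusted p at most 0.137 over the cases). Without H3 replicate 3 the differences from H3 were -1.35 for Tcf12 and -0.85 for Zfp420, and without R1 replicate 2 they were -1.17 and -0.89. Against C, leaving out a C or R1 array kept the call in 2 of 6 cases for Tcf12, without C replicate 3 or R1 replicate 3, and in 3 for Zfp420, without C replicate 1, C replicate 3 or R1 replicate 2. The other 4 Tcf12 probe sets (-0.34 to -0.03 from H3) and the further Zfp420 probe set (0.06) did not pass. The brightest Tcf12 probe set, with a mean of 318 over the 24 arrays against 50.1, differed by -0.11.

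The other named falls were smaller or at low intensity. Zswim6, a zinc finger protein, read 450, 469 and 396 in C, 516, 503 and 515 in H3, and 357, 369 and 343 in R1 (-0.50). Dvl2, a scaffold of Wnt signalling, read 70.2, 62.9 and 52.2 in C, 74.1, 66.6 and 64.9 in H3, and 48.1, 47.7 and 43.9 in R1 (-0.43). The R1 arrays of both lay below every C and H3 array, with R1 minus C at -0.29 and -0.31. The granzyme gene Gzme (-0.65) was below 4 in all C and R1 arrays and between 8.35 and 16.3 in H3, and 2900057B20Rik (-0.92) was below 6 in C and R1 and between 11.1 and 25.4 in H3, levels at which the added 16 shapes the difference. None of Zswim6, Dvl2 and Gzme kept the call with an array left out, and 2900057B20Rik kept it in 2 of 6 cases. Unnamed transcripts made up 10 of the 22 that fell, from -1.17 (1456159_at) to -0.36 (1448484_at).

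The transcripts that rose during the hour had been below the control mean at H3. Rtn4, which encodes the reticulon family member Nogo, read 182, 190 and 156 in C, 86.5, 115 and 95.0 in H3, and 212, 227 and 243 in R1 (1.09, SE 0.19; limma adjusted p = 0.0318). Senp6, a SUMO protease, read 48.5, 47.3 and 40.6 in C, 19.3, 20.5 and 15.7 in H3, and 45.2, 44.4 and 49.1 in R1 (0.85, SE 0.12; limma adjusted p = 0.0074). In both genes the H3 arrays were the low group, with the R1 arrays above all controls for Rtn4 and among them for Senp6. Of the 4 other Rtn4 probe sets none passed, with differences of 0.04 to 0.60. The brightest, with means of 2466 and 1309 over the 24 arrays against 189 for the called probe set, differed by 0.04 and 0.13. At H3 they differed from C by -0.01 and 0.01. The other Senp6 probe sets, with means of 277 and 64.1 against 40.7, differed by -0.05 and 0.13 and did not pass. With an array left out, Senp6 missed the threshold without H3 replicate 3 or R1 replicate 3, and Rtn4 passed only without H3 replicate 2 (limma adjusted p at most 0.203 over the cases). Without H3 replicate 3 the differences were 0.79 for Senp6 and 1.07 for Rtn4, and without R1 replicate 2 they were 0.87 and 1.09.

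Ints6, a subunit of the Integrator complex, read 57.5, 76.8 and 57.9 in C, 33.3, 31.4 and 26.4 in H3, and 84.9, 60.6 and 94.1 in R1 (1.03, SE 0.17; limma adjusted p = 0.0245). Trmt13, a transfer RNA methyltransferase, read 54.3, 51.3 and 49.2 in C, 17.6, 18.0 and 28 in H3, and 50.5, 62.8 and 63.0 in R1 (1.01, SE 0.19; limma adjusted p = 0.0452). Ube2b, a ubiquitin-conjugating enzyme, read 133, 142 and 120 in C, 69.2, 82.1 and 64.6 in H3, and 110, 123 and 134 in R1 (0.66, SE 0.12; limma adjusted p = 0.0432). In these 3 genes the R1 arrays overlapped the controls, and the H3 arrays lay below both groups. Without H3 replicate 3 the differences were 0.97, 1.14 and 0.60, and without R1 replicate 2 they were 1.19, 0.97 and 0.65. Ints6 kept its call without R1 replicate 2, Ube2b without H3 replicate 2, and Trmt13 in none of the 6 cases. With the replicate number as a block Ube2b missed the threshold (limma adjusted p = 0.0539), as did the unnamed 1459722_at (-0.74, limma adjusted p = 0.0674). None of the other Ints6, Trmt13 or Ube2b probe sets passed. The brightest Ints6 probe set, with a mean of 2229 over the 24 arrays against 62.1, differed by 0.07. Ube2b probe sets with means of 816 and 742, against 130, differed by -0.03 and 0.01, and a further probe set at 218 by 0.36. The called Trmt13 probe set was the brightest of its gene.

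Phf6, a chromatin protein with PHD fingers, read 81.9, 78.2 and 88.7 in C, 66.0, 63.4 and 55.7 in H3, and 104, 97.4 and 103 in R1 (0.60). Lysmd3, a membrane protein with a LysM domain, read 97.3, 115 and 98.2 in C, 78.7, 88.5 and 75.6 in H3, and 127, 121 and 109 in R1 (0.48). The R1 arrays of Phf6 lay above the controls and those of Lysmd3 overlapped them. The other Phf6 probe sets went the other way (-0.30 and -0.23) and did not pass. The other Lysmd3 probe set rose (0.34) without passing. The called probe set of Hmgcs1, the cytosolic synthase at the start of cholesterol synthesis, read 3.26, 1.84 and 10.4 in C, 1.01, 0.737 and 3.47 in H3, and 19.6, 25.2 and 27.9 in R1 (1.18, SE 0.21; limma adjusted p = 0.0318). Its R1 arrays were above all of the other 6, but at low intensity, and the 4 further Hmgcs1 probe sets, with mean intensities of 733 to 1711, differed by -0.07 to 0.09. Without H3 replicate 3 the difference of the called Hmgcs1 probe set was 1.25, and without R1 replicate 2 it was 1.16, and neither passed. Of these 3 genes, only Lysmd3 kept its call in any case with an array left out, without H3 replicate 2. The 3 unnamed transcripts that rose were 1446954_at (1.09), 1442538_at (0.88) and 1459497_at (0.75).

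For most named genes the called transcript was one of several probe sets, and none of the others passed. Of the 20 named genes, 15 had a further probe set of their own, 40 in all. Of these 40, 28 differed in the direction of the called one, 7 had an unadjusted p under 0.05 and 0 passed limma's adjusted test, with differences from -0.53 to 0.60. The called probe set had the highest mean intensity of its gene in 3 of the 15 genes and a lower one in 12. H3f3b, Ier3, Edn1, Gzme and 2900057B20Rik had a single probe set that names only them.

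**Figure D1:**
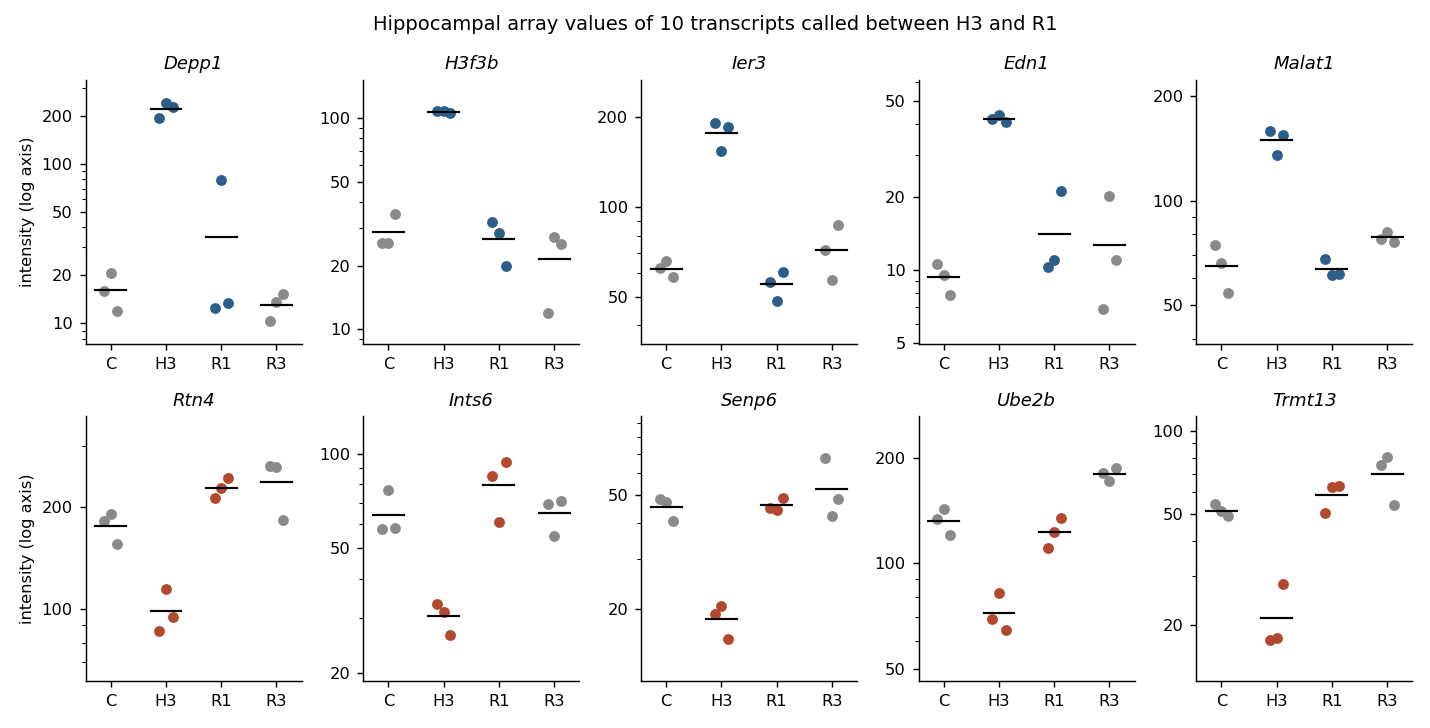
Intensity (log axis) in each hippocampal array of C, H3, R1 and R3 for 10 transcripts that differed between R1 and H3, with 1 point per array and 3 arrays per group. For Depp1 the H3 arrays sit between 195 and 241 and the R1 arrays between 12.4 and 78.9, and for Senp6 the H3 arrays sit between 15.7 and 20.5 and the R1 arrays between 44.4 and 49.1.

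The 0hr arrays were used to tell a return to the control level from a new change. Because the same H3 arrays enter both comparisons, these placements are descriptions and were not tested. At H3 all 22 transcripts that fell in room air were above the control mean and all 11 that rose were below it. With 1.5-fold as the limit, 21 of the 33 were at least that far from C at H3 and within it at R1 (14 that fell and 7 that rose), and so returned. A new distance from C at R1 was found for 4: Tcf12 and Zfp420 below the controls, and Hmgcs1 and 1459497_at above. The other 8 were within 1.5-fold at both times, and none stayed away or crossed. The median distance of the 22 from C moved from 0.88 at H3 to -0.09 at R1, and that of the 11 from -0.66 to 0.25. Against C, 13 of the 22 and 2 of the 11 passed at H3, where 0.153% of all transcripts were higher and 0.0888% lower, and 2 of the 22 and 1 of the 11 passed at R1.

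**Figure D2:**
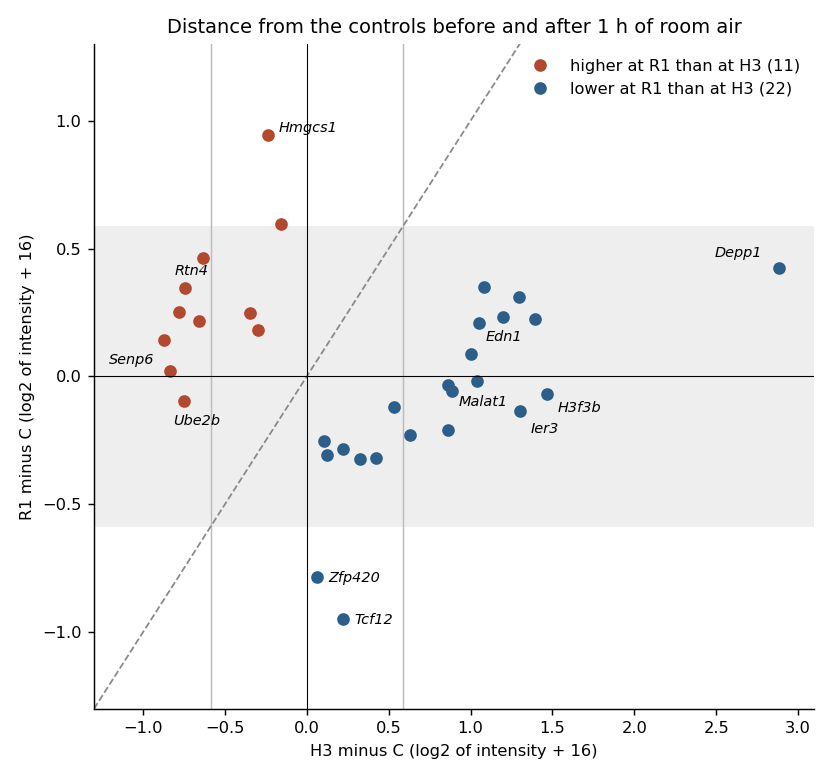
Mean log2(intensity + 16) at R1 minus C (vertical) against H3 minus C (horizontal) for the 33 transcripts, coloured by the direction of R1 minus H3. The 22 that fell all lie to the right of 0 and the 11 that rose all lie to the left, and 15 of the 22 lie below 0 at R1 while 10 of the 11 lie above it; the H3 arrays enter both the choice of transcripts and the horizontal axis.

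The later arrays do not enter the means of R1 or H3, but they share in the spread that chose the 33 transcripts. At R3 all 33 were within 1.5-fold of C and 0 passed limma's test against it, where 0.00444% of all transcripts passed. At the later times 0 of the 33 passed limma's test either. Past 1.5-fold were 1 at R6 (1446954_at, 0.59), 1 at R12 (1459722_at, 0.59) and 2 at R24 (Hmgcs1, 0.74, and 2900057B20Rik, 0.80). The median distance of the 22 was 0.16 at R3, 0.03 at R6, 0.10 at R12 and 0.01 at R24, and that of the 11 was 0.21, 0.24, 0.24 and 0.01. During hypoxia, 19 of the 22 were already above C at H1 and 4 of them passed, where 0.0377% of all transcripts passed (0.0311% higher and 0.00666% lower), among them Ier3 (1.76), Depp1 (2.62) and Edn1 (1.46). Of the 11, 10 were below C at H1 and 1 passed, Senp6 (-0.78; limma adjusted p = 0.0183).

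**Figure D3:**
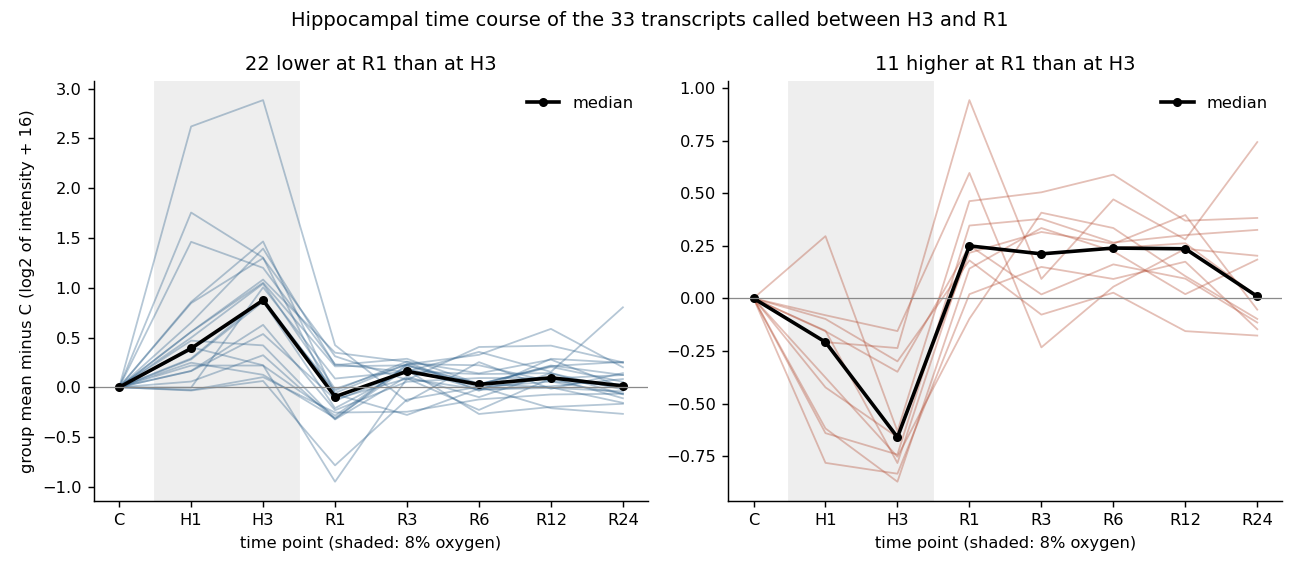
Group mean minus C on the log2(intensity + 16) scale over the 8 time points for the 22 transcripts lower at R1 and the 11 higher at R1 than at H3, 1 thin line per transcript and the median in black, with 8% oxygen shaded. The median of the 22 goes from 0.39 at H1 to 0.88 at H3 and -0.09 at R1, and that of the 11 from -0.21 to -0.66 and 0.25.

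Some transcripts that passed against the controls at H3 were still away from them after the hour in room air. Against C, 109 transcripts passed at H3 (0.242%; 69 higher and 40 lower) and 145 at R1 (0.322%; 43 higher, 0.0955%, and 102 lower, 0.226%), and 32 passed at both times, 29.4% of the first list and 22.1% of the second. Of the 69 that were higher at H3, 41 had come within 1.5-fold of C at R1, 19 had not and 9 were within it at both times. Of these 69, 13 passed the direct test between R1 and H3. Of the 40 that were lower, 17 had come within that limit, 13 had not and 10 were within it at both times. Of these 40, 2 passed the direct test. The H3 arrays that chose the 69 and the 40 also enter the direct test, so a move back towards C is favoured by that choice. At R3, 67 of the 69 and all 40 were within 1.5-fold of C. The count at R1 was 70 after median centring and 295 among probe sets above the median level. These comparisons share the C arrays, and their counts moved with single arrays: the count at H3 was 47 without H3 replicate 3, 66 without H3 replicate 2, 65 without C replicate 1 and 61 without C replicate 2. The count at R1 was 80, 50 and 29 without R1 replicates 1, 2 and 3, and 88, 24 and 85 without C replicates 1, 2 and 3.

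Txnip, an alpha-arrestin that binds thioredoxin and limits glucose uptake, was the clearest of those still raised. It read 169, 138 and 175 in C, 463, 510 and 497 in H3, and 307, 347 and 364 in R1. The R1 arrays lay between the other groups without overlap. R1 exceeded C by 1.01 (SE 0.11; limma adjusted p = 0.000275), and did so in every case with a C or R1 array left out, while the step from H3 did not pass (-0.51, limma adjusted p = 0.102). A further Txnip probe set differed by 0.90 from C (limma adjusted p = 0.0212) and by -0.81 from H3 (limma adjusted p = 0.0996), and with a C or R1 array left out it passed against C only without R1 replicate 1. The related Arrdc3 was above C by 0.86 at H3 and 0.61 at R1 (limma adjusted p = 0.0097 at R1), and missed the threshold at R1 without C replicate 2, R1 replicate 2 or R1 replicate 3 (0.56 to 0.69 over the cases).

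Ddit4, an inhibitor of mTORC1 signalling and a HIF and glucocorticoid target, read 445, 449 and 527 in C, 1084, 1241 and 1113 in H3, and 754, 962 and 759 in R1. Its R1 arrays lay between the groups, above C by 0.78 (limma adjusted p = 0.0212), and the step from H3 did not pass (-0.47, limma adjusted p = 0.388). With an array left out Ddit4 passed at R1 only without C replicate 3 or R1 replicate 1 (0.66 to 0.85 over the cases). Vegfa, the angiogenic growth factor, read 99.8, 127 and 134 in C, 166, 225 and 219 in H3, and 215, 202 and 221 in R1. Its R1 and H3 arrays overlapped (0.07), and both groups passed against C (0.68 at H3, limma adjusted p = 0.0496, and 0.76 at R1, limma adjusted p = 0.0253). The difference from C passed only without H3 replicate 1 at H3 (0.57 to 0.81) and only without C replicate 3 at R1 (0.64 to 0.83). The serum- and glucocorticoid-regulated kinase Sgk1 (1.12) and the bZIP factor Maff (1.05) were also above C at R1, with differences between R1 and H3 of -0.14 and -0.11. With an array left out Sgk1 passed at R1 only without C replicate 3 (0.91 to 1.4), and Maff only without R1 replicate 3 (0.92 to 1.23).

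Other transcripts passed against C at R1 and not at H3, although the step from H3 to R1 did not pass. Hmgb2, a chromatin protein of the high mobility group, read 45.7, 41.0 and 40.2 in C, 76.1, 93.9 and 75.6 in H3, and 118, 95.5 and 135 in R1. All R1 arrays were above all H3 arrays, and R1 exceeded C by 1.17 (SE 0.17; limma adjusted p = 0.0051), with a step of 0.43 from H3 (limma adjusted p = 0.679). Gna13, a G protein alpha subunit, read 67.3, 63.2 and 54.2 in C, 88.4, 79.5 and 96.5 in H3, and 128, 119 and 113 in R1. It was above C by 0.81 (SE 0.10; limma adjusted p = 0.0011), with a step of 0.39 from H3 (limma adjusted p = 0.244). Both passed against C in every case with a C or R1 array left out, and the 2 further Hmgb2 probe sets, at 0.80 and 0.68 above C, did not pass.

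Among the 102 transcripts below C at R1, 86 had been within 1.5-fold of it at H3. Of these 86, 37 were past that limit at R1 and 49 were still within it. At R3, 101 of the 102 were within 1.5-fold of C. Rbm5, a splicing regulator, read 704, 646 and 584 in C, 617, 527 and 534 in H3, and 425, 383 and 346 in R1. Its R1 arrays were the lowest of the 9, with differences of -0.72 from C (SE 0.11; limma adjusted p = 0.0055) and -0.52 from H3 (limma adjusted p = 0.102). A further Rbm5 probe set was also below C (-0.76, limma adjusted p = 0.0265), and 3 more did not pass. Klf5, a Krüppel-like transcription factor, read 175, 186 and 197 in C, 161, 157 and 167.7 in H3, and 106, 103 and 115 in R1. Its R1 arrays were likewise the lowest, with a difference of -0.70 from C (limma adjusted p = 0.0047); that from H3 did not pass (limma adjusted p = 0.0673). Hes5, a Notch target, and Zc3h6, a zinc finger protein, were low at both times, at 24.6 to 26.6 and 58.8 to 75.0 in H3 and 23.5 to 36.2 and 60.2 to 67.6 in R1, against 69.0 to 73.1 and 106 to 167 in C. These 4 passed against C at R1 in every case with a C or R1 array left out. A further, dim Zc3h6 probe set, with a mean of 11.6 over the 24 arrays, went the other way at H3 (0.56 from C). It was near C at R1 (-0.04) and passed at neither time.

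Gene lists that respond to hypoxia showed few calls between R1 and H3. Each gene was represented by its probe set of highest mean level, and over all 18193 such genes 1 was higher (0.0055%) and 7 lower (0.0385%), with a median difference of -0.01. Against C the same genes gave 24 higher (0.132%) and 21 lower (0.115%) at H3, and 23 higher (0.126%) and 59 lower (0.324%) at R1. Between R1 and H3, over the 20 lists, 3 of 422 member genes passed, all lower: Edn1, Ier3 and H3f3b. Of 31 HIF targets, 1 fell (Edn1) and the median was 0.01. Glycolytic HIF targets lay near 0 (Pgk1 -0.02, Ldha 0.01), and Bnip3 differed by 0.09. Adm, which encodes the vasodilator adrenomedullin, read 62.0, 41.8 and 21.3 in C, 67.0, 108 and 106 in H3, and 19.5, 47.0 and 70.9 in R1, groups that overlapped (-0.90, limma adjusted p = 0.497). Its other probe set exceeded C at H3 (1.29, limma adjusted p = 0.0031) and differed by -0.72 between R1 and H3 (limma adjusted p = 0.295). Ets1 differed by -0.36 and Cdkn1a by 0.18. Of 28 angiogenic ligands and receptors 1 fell, again Edn1 (median -0.08), and of 9 genes of histone H3.3 and HMG proteins 1 fell, H3f3b (median 0.03).

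Of 40 immediate early genes, 6 were higher than C at H3 and 1 at R1, and 1 fell between them (Ier3), with a median of -0.09. Egr1 read 1215, 1110 and 945 in C, 1890, 1933 and 2071 in H3, and 1543, 1442 and 1829 in R1, so that R1 lay between the others without passing (-0.30, limma adjusted p = 0.735). Zfp36, which destabilises messengers with AU-rich elements, differed by -0.51 (limma adjusted p = 0.199), Ccn1 by -0.30 and Gadd45g by -0.29, all 3 higher than C at H3, though Gadd45g kept that call in 3 of 6 cases with an array left out. Arc, a synaptic immediate early gene, differed by 1.09 with wide scatter (limma adjusted p = 0.662). Of 26 FOXO targets and alpha-arrestins, 24 glucocorticoid-induced genes, 21 NF-kappaB genes, 47 CLK kinases and splicing regulators and 4 BTG and TOB genes, 0 passed between R1 and H3, with medians of 0.02, 0.12, -0.04, -0.02 and 0.18. At an unadjusted p under 0.05 in limma they held 4, 2, 5, 4 and 1 genes, beside 1065 of all 18193 genes. The immediate early genes held 8 of 40, the HIF targets 4 of 31, the angiogenic list 2 of 28 and the histone H3.3 and HMG list 2 of 9. These counts were not tested. Again 1 probe set stands for each gene, so the called one of Depp1 is not among these counts. Clk1, which phosphorylates splicing factors, read 244, 310 and 257 in C, 124.9, 117 and 96.9 in H3, and 189, 162 and 161 in R1, with R1 between the other groups (0.54, limma adjusted p = 0.313). Other members of these lists passed against C alone. At H3 Nfkbia, the inhibitor of NF-kappaB, was higher (0.60), Errfi1, an inhibitor of the epidermal growth factor receptor, was higher (0.71), and Btg1 was lower (-0.51). At R1 Errfi1 (0.58), Arrdc4 (0.80) and the splicing factor Srsf5 (0.77) were higher, and Ccng2, a FOXO target, was lower (-0.50, after -0.42 at H3). With an array left out the calls at H3 were kept in 5 of 6 cases for Nfkbia, 4 for Errfi1, 2 for Btg1 and 1 for Ccng2. At R1 they were kept in 1 case each for Errfi1, Arrdc4 and Srsf5 and in 3 for Ccng2.

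No member passed either among 20 p53 targets (median 0.04), 25 heat shock proteins and co-chaperones (-0.02), 31 genes of ATF4 and the unfolded protein response (0.01), 23 NRF2 targets (0.00), 17 MAP kinase feedback inhibitors (-0.04), 27 genes of glycolysis and glycogen (0.00), 30 respiratory chain subunits (0.05), 19 clock genes (-0.02), 18 glutamate receptor genes (-0.01) or 13 genes of GABA signalling (0.00). Unadjusted p values under 0.05 numbered 3, 1, 0, 2, 2, 1, 1, 1, 2 and 1, beside 1065 over all 18193 genes. The clock genes Ciart (1.31) and Nr1d1 (0.63) were above C at R1. Ciart kept its call in 4 of 6 cases with an array left out, missing it without C replicate 2 or R1 replicate 3, and Nr1d1 kept it only without C replicate 3. Polk, a translesion polymerase of the p53 list, was below C at R1 (-0.82), a call kept in none of the 6 cases. Cirbp, the 1 measured cold-induced RNA-binding protein, differed by 0.11 between R1 and H3. Ppp1r3c, a glycogen targeting subunit of a phosphatase, was above C at H3 (0.65) and at R1 (0.64), calls kept only without H3 replicate 1 and only without R1 replicate 1.

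**Figure D4:**
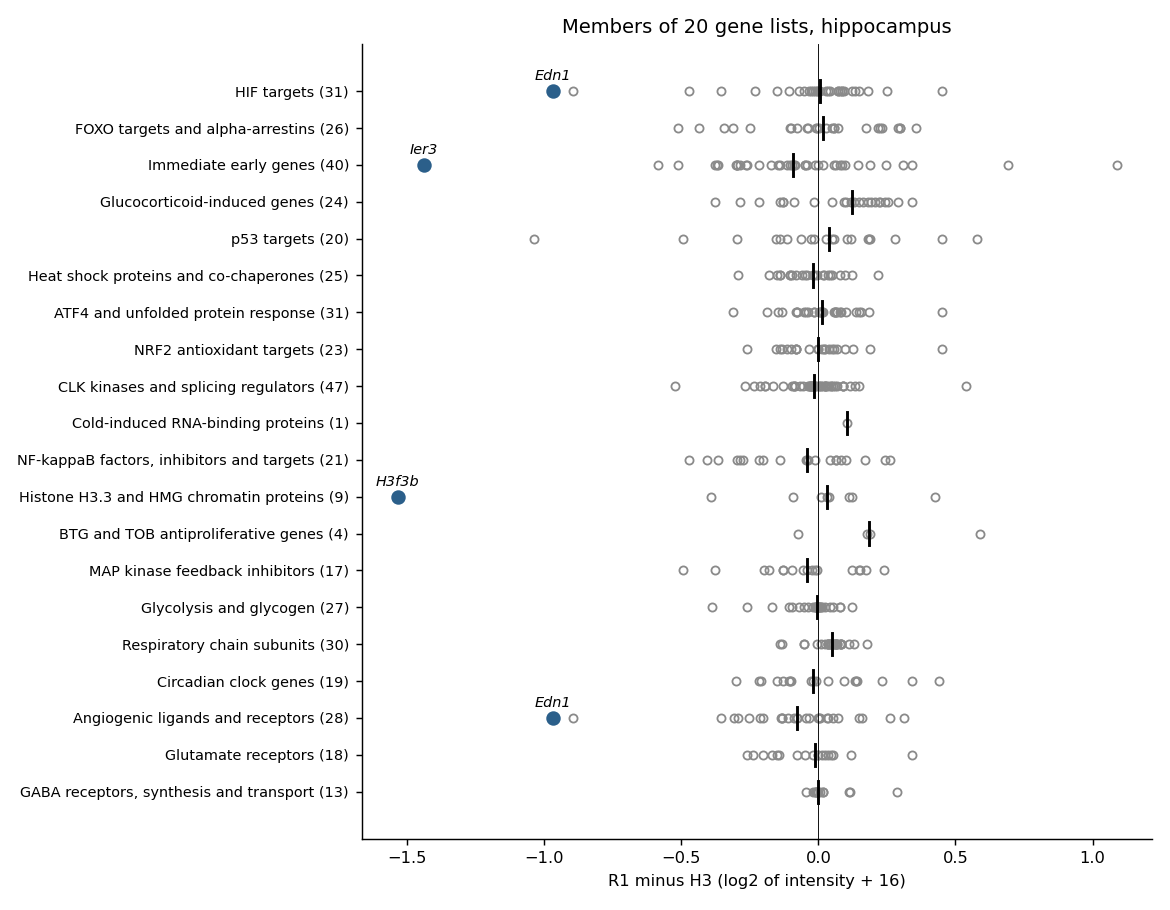
R1 minus H3 on the log2(intensity + 16) scale for each member of 20 gene lists, 1 point per gene with the number of measured genes in brackets. Most points lie near 0, and the 3 members that passed (Edn1, Ier3 and H3f3b) lie between -1.53 and -0.97.

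The 33 transcripts were then read in the other 6 regions, which come from the same mice and so are not further animals. Of 198 values, 190 had the direction seen in the hippocampus and 48 passed limma's test within their region. By region, 31 of 33 shared the direction and 13 passed in the cerebellum (0.517% of all transcripts there), 30 and 5 in the cerebral cortex (0.02%), 32 and 8 in the midbrain (0.04%), 32 and 4 in the pons and medulla (0.02%), 32 and 11 in the striatum (0.131%), and 33 and 7 in the thalamus (0.0422%). H3f3b passed in all 6 (-1.86 to -1.26), Depp1 in 5 (-2.71 to -2.05) and Ier3 in 4 (-1.27 to -0.79). Tcf12 ranged from -1.29 to -0.90 and Zfp420 from -0.72 to -0.34, each passing in 1. Hmgcs1 ranged from 0.72 to 1.28 and passed in 1. The transcript 2900057B20Rik shared the direction in 3 of the 6 regions and passed in none, and 10 of the 33 passed in none.

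**Figure D5:**
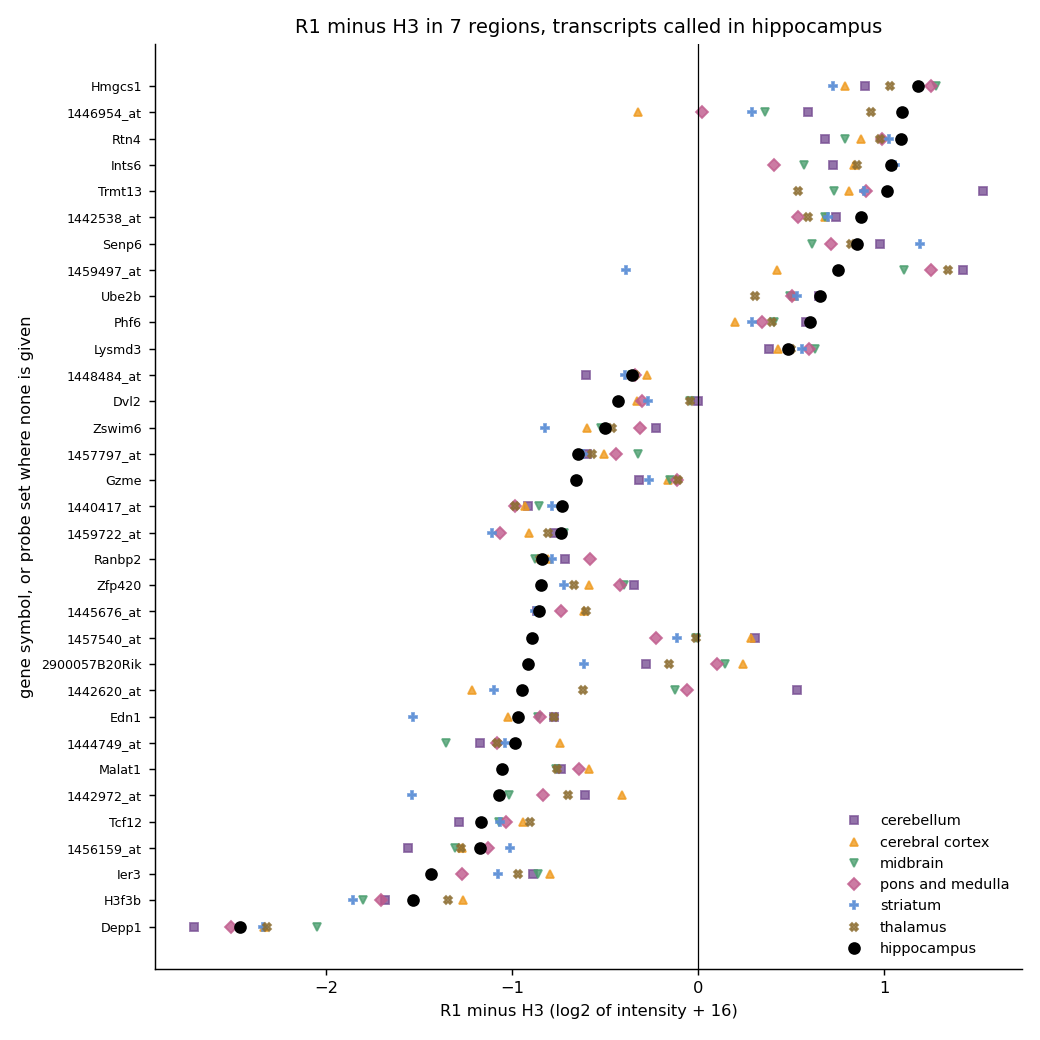
R1 minus H3 on the log2(intensity + 16) scale in the hippocampus (black) and the 6 other regions for the 33 transcripts that passed in the hippocampus. Of the 198 values from the other regions, 190 lie on the same side of 0 as the hippocampus; the transcripts were chosen on the hippocampal values.

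Whether the hour in room air differed in the hippocampus was tested as a difference of differences. Against the mean of the other 6 regions, 0 of 45037 transcripts passed limma's interaction test (0%), with 1695 at an unadjusted p under 0.05. The smallest adjusted p was 0.0717, for the muscle receptor kinase Musk (0.86, SE 0.15), whose mean intensity was 12.1. The next were Galnt14 (-0.94), Aqp6 (0.71), Deptor (-0.70), Spsb2 (0.65), Polr1c (-0.58), Tceanc2 (0.79), 1810044D09Rik (-0.90), Wdr33 (0.48) and G6pd2 (0.51). Against the striatum 0 passed (0%; 1959 at an unadjusted p under 0.05). Against the cerebellum 12 passed (0.0266%), 10 of them lower and 2 higher in the hippocampal change than in the cerebellar one. Among them Btg1, an antiproliferative gene, read 331, 339 and 333 at H3 and 389, 353 and 399 at R1 in the hippocampus, and 914, 847 and 823 at H3 and 1739, 1763 and 1710 at R1 in the cerebellum. Its changes of 0.18 and 1.00 differed by -0.82 (SE 0.13, limma adjusted p = 0.0044). In the remaining regions Btg1 changed by -0.01 to 0.32. Of the 33 transcripts, only 1442620_at was among the 12, with -0.94 in the hippocampus and 0.53 in the cerebellum.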

How the data were processed

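Per the study's methods, hippocampal RNA of 3 mice per group was hybridised to 1 array each. The authors deposited a linear intensity for each of 45101 probe sets, scaled to a trimmed mean of 125 on every array; the submitters' notes name GCOS 1.3, these values do not show the GCRMA of the methods, and the summarization is not given in the sources used here. In the C, H3 and R1 arrays 25.5 to 30.2% of values were under 16.

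The 64 control probe sets were left out. log2(intensity + 16) was fitted with limma 3.58.1 (R 4.3.3; read with data.table, version 1.17.8), with 8 group means over 24 arrays and no covariate. The region test used 42 arrays, 14 group means and the mouse (a shared time point and replicate number, not stated in the labels) as a random block, with a correlation of 0.0130. The scripts were tested on simulated data.

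Members, gene lists and tests were chosen with earlier results of these data known. Named genes are those called between R1 and H3, list members called in any of the 3 contrasts or of highest mean level, the 10 smallest p values of the region test, and genes of earlier text on these data; Klf5, Gna13, Hes5 and the unnamed probe sets were chosen after their values were seen. Same-numbered H3 and R1 arrays, which come from different mice, deviated together weakly (r = 0.102, 0.122 and 0.117). The main fit did not pair them, and the replicate block was run only as an alternative. Alternatives were a pseudocount of 1 or 32, quantile normalization, median centring, a filter on dim probe sets, limma's trend and robust options, a replicate block, the 6 arrays alone, the methods' t-test and F-test rule, and leaving out each array.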

Additional observations from a re-analysis of the deposited data

Results flagged for a closer look

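The change from H3 to R1 in the hippocampus was tested only against the mean of the other 6 regions, the striatum and the cerebellum. By limma's interaction test 12 transcripts passed against the cerebellum, and none of them passed against the striatum or the mean of the other 6 regions. Each value is the hippocampal minus the cerebellar change, on the log2(intensity + 16) scale. For Polr1c, a shared subunit of RNA polymerases I and III, the difference was -1.12 (changes of -0.42 and 0.70). For the antiproliferative gene Btg1 it was -0.82 (0.18 and 1.00), and for the unnamed 1442620_at -1.48 (-0.94 and 0.53). Dtx2, a regulator of Notch signalling, differed by -1.50 (-0.64 and 0.86), and Spsb2 by 1.04 (0.48 and -0.56). Edrf1 differed by -0.89 (-0.42 and 0.47), the adaptor Grb7 by -0.81 (-0.28 and 0.53) and the chromatin regulator Asxl1 by -0.61 (-0.27 and 0.34). Rif1, a protein of replication timing and DNA repair, differed by 0.79 (0.15 and -0.64). Tfap4 differed by -1.04 (-0.18 and 0.86), Hook2 by -1.97 (-0.79 and 1.17) and A930007A09Rik by -0.81 (-0.31 and 0.50), the last pair at mean intensities of 12.6 and 8.37. Adjusted p values ran from 0.0044 to 0.0416 in limma. The count was 3 without hippocampal H3 replicate 1, R1 replicate 2 or R1 replicate 3, and 5 without H3 replicate 3.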

How the results depend on the processing

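All 33 transcripts kept their direction under every alternative that measured them, and 30 to 33 of them passed with a pseudocount of 32, quantile normalization, median centring, the trend and robust options or the replicate block. The block, under which 39 passed, changed no call of the 33 but those of Edn1, Ube2b and 1459722_at. With a pseudocount of 1, 18 passed (6 higher, 12 lower). The F-test rule gave 50 (29 higher), and the 6 arrays alone and the methods' t-test after adjustment gave 0, 0 higher and 0 lower (2706 at an unadjusted p under 0.05). With 1 array left out, 4 to 31 passed, 0 to 13 higher and 4 to 21 lower.

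Against C, leaving out an array gave 47 to 102 at H3 and 24 to 133 at R1, and the count at R1 was 70 after median centring and 295 among probe sets above the median level. With a 1.2-fold limit 1 of the 33 was within it at both times, 3 stayed away and 4 crossed, and 4 crossed with a pseudocount of 1. The striatum difference gave 2 with a pseudocount of 1 or 32 and 0 to 1 with an array left out, and the difference from the mean of the other 6 regions gave 0 to 1 with an array left out. The cerebellum difference gave 5 with a pseudocount of 1, 7 after quantile normalization and 3 to 11 with an array left out. The BTG and TOB list had a median of 0.14 when each gene took the median of its probe sets. Where only a scale or an array was changed, the cause was not tested. Transcripts under an intensity of 16 are limited by signal over background.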
